A study of Caenorhabditis elegans with 10 samples.

Results

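The comparison described here is that of the *smg-1* mutant with the wild type N2 in whole young adult *Caenorhabditis elegans* at 20°C. Each strain gave 2 libraries of total RNA, 4 of the 10 in the series, and the genes described are the 13869, of 15106 in the deposited table, whose normalised read count averaged at least 10 over the 8 libraries at 20°C, which also include 2 of *smg-2* and 2 of *clk-2*. Just outside this limit lay C04A11.2 with a mean of 9.997 and *nlp-57* with 9.99, and just inside it *clec-233* and Y18H1A.8, both with 10.02. N2 carried no transgene. The *smg-1(rrr59)* animals came from an EMS screen and carried the single-copy transgene rrrSi482, in which the ubiquitous *dpy-30* promoter drives GFP fused to histone H2B with a fragment of the *ets-4* 3'UTR, and which brings a working *unc-119* as a marker. The strain is 1 isolate, and *smg-2(rrr60)* is a second isolate of the same screen. The reporter strain that was mutagenized is not among the samples analysed here, so the *smg-1* mutation cannot be told apart from the transgene and from other changes left by the mutagen. The 20°C libraries used for the comparison held 12253389 to 13755869 counted reads for N2 and 8412266 to 10607715 for *smg-1*.

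Nonsense-mediated mRNA decay (NMD) removes transcripts on which translation stops too early or too far from the transcript's end. SMG-1 is the protein kinase that phosphorylates SMG-2, the RNA helicase at the core of the pathway, and *C. elegans* without NMD is viable. Since NMD destroys its targets, these accumulate when the pathway is lost.

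The *smg-1* gene itself (chromosome I, 6900949 to 6913579 in WBcel235) stood at 2222 and 2021 normalised read counts in N2 and at 6206 and 5817 in the mutant, so the level of its RNA gives no check of the label by loss. Of the 9 *smg* genes tested it alone passed both limits of a call, which were an adjusted p under 0.05 and a log2 fold change beyond 1 or -1 (limma on log2(value + 1), Benjamini-Hochberg). *smg-5* (log2 fold change 0.96) and *smg-3* (0.39) passed the adjusted p alone. Among the genes whose sequences are in the reporter construct, *unc-119*, a neuronal gene used to mark transgenic animals, rose from 18.9 and 16.4 to 40.5 and 42.8 normalised read counts (log2 fold change 1.19, standard error 0.27, adjusted p = 0.013). *ets-4* (-0.17) and *dpy-30* (-0.14) were not called. The construct takes only the promoter from *dpy-30*, so the level of that gene gives no measure of the transgene. Histone H2B, which the construct also encodes, was not followed as a construct gene. *unc-119* was at 41.6 and 54.2 in *smg-2*. Markers of neurons, intestine and hypodermis were present in the libraries of both strains.

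In *smg-1*, 1056 genes (7.61% of those tested) were called higher and 134 (0.966%) were called lower than in N2. Without the limit on fold change, 1702 genes (12.3%) were higher and 1283 (9.25%) were lower at an adjusted p under 0.05. Quantile normalization changed this split, giving 836 higher and 270 lower, and moved the median log2 fold change of all genes from -0.023 to -0.11. A gene just inside the limit for lower calls was *msp-64* (-1.002), and just outside it were *spn-4* (-0.999) and F43C9.1 (-0.995). The 2 libraries of a strain were not said to come from separate cultures, so the p-values measure only the spread between these libraries. An exact permutation test of 2 against 2 libraries cannot give a two-sided p below 0.333, and none is reported.

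The N2 libraries differed from each other more than the *smg-1* libraries did. Between them, 743 genes were at least 2-fold higher in replicate 2 and 106 in replicate 1, against 80 and 113 in *smg-1*. All 134 genes called lower lay below both N2 libraries in both *smg-1* libraries, a position that 32.6% of all genes tested held. Of the lower genes, 99 were at least 2-fold below each N2 library on average, 15 were less than 2-fold below replicate 1 and 20 were less than 2-fold below replicate 2. For 71 of the 134, every *smg-1* library was at least 2-fold below every N2 library. The calls of 86 genes stood when N2 replicate 1 was left out and those of 101 when replicate 2 was left out, with 66 standing in both cases. Of the higher genes, 881 of 1056 were at least 2-fold above each N2 library, and 129 were less than 2-fold above replicate 2 against 46 for replicate 1. In 122 higher genes N2 replicate 2 was already at least 2-fold above replicate 1, and in 17 the reverse held. The single N2 library taken after 3 hours at 25°C also lay above the *smg-1* mean for 121 of the 134 lower genes, a position that 48.3% of all genes tested held.

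**Figure D1:**
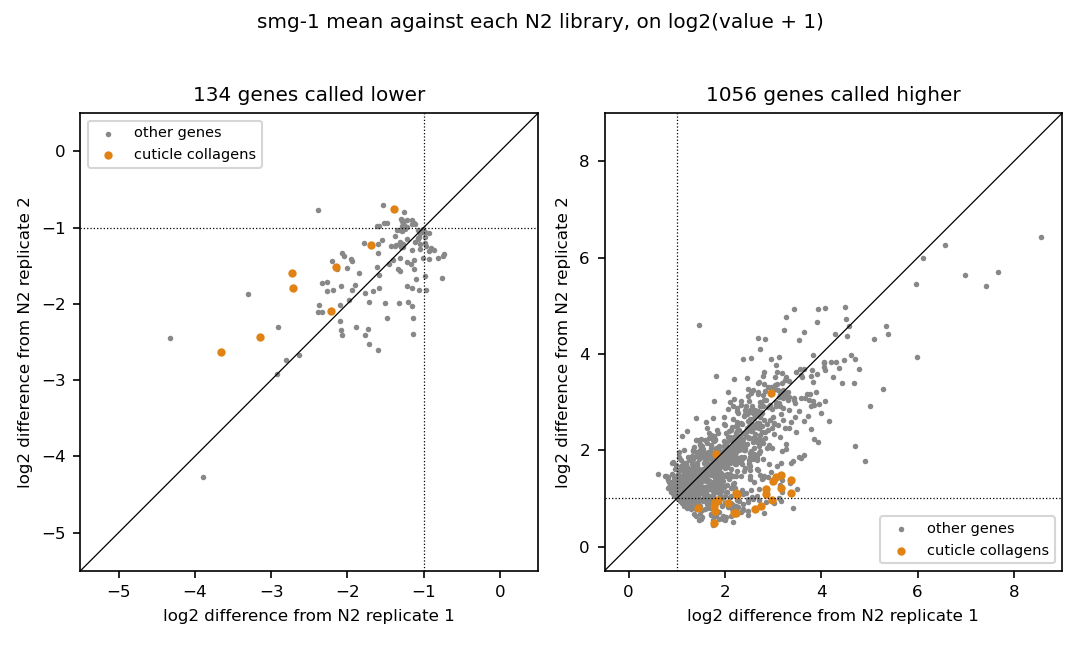
Each point is a gene called lower (left, 134 genes) or higher (right, 1056 genes) in *smg-1*, placed by the log2 difference of the *smg-1* mean from N2 replicate 1 (x axis) and from N2 replicate 2 (y axis), on log2(value + 1). Dotted lines mark a 2-fold difference and the diagonal marks equal differences. Cuticle collagens (orange) lie mostly above the diagonal on the left and below it on the right.

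Of the 134 lower genes, 52 belonged to one of 42 families or functional lists and 82 to none. The largest fall was in the *pud* genes, named after proteins raised in mutants of the insulin receptor gene *daf-2*. *pud-3* (chromosome V, 2324634 to 2325152) stood at 126 and 164 normalised read counts in N2 and at 2.13 and 22.3 in *smg-1*. Its level was 16.9-fold lower on the log2(value + 1) scale (log2 fold change -4.08, standard error 0.73, adjusted p = 0.0042). The *smg-1* libraries were thus far below N2 but also differed strongly from each other. *pud-4*, in the same cluster (2326678 to 2327282), stood at 61.7 in both N2 libraries and at 3.19 and 15.4 in *smg-1* (log2 fold change -2.92, standard error 0.63, adjusted p = 0.011). *pud-2.2* (2329444 to 2329954) and *pud-1.1* (2330429 to 2330930) fell as well, with log2 fold changes of -2.19 and -2.10, at levels of 4.91 to 11.2 in N2. *ddn-1*, elsewhere on chromosome V, stood at 26.7 and 42.2 in N2 and at 7.45 and 6.85 in *smg-1* (-2.08, adjusted p = 0.0022). Of the 6 *pud* and *ddn* genes tested, of 7 in the table, 5 (83.3%) were called lower, beside 0.966% of all genes tested. The remaining one, *pud-1.2* (2322038 to 2322566), missed the threshold at -2.10 (adjusted p = 0.054). The median log2 fold change of the list was -2.15, beside -0.023 for all genes tested. Near-identical copies among them are measured only on reads with a single match. The calls fell from 5 to 2 without *smg-1* replicate 1. The same genes were low in *smg-2*, where *pud-3* stood at 12.7 and 27.1 and *pud-4* at 4.70 and 17.6. Neither passed an adjusted p under 0.05 between the mutants in limma (adjusted p = 0.53 and 0.88). Their log2 differences, *smg-1* minus *smg-2*, were -1.20 and -0.31, with standard errors of 0.73 and 0.63, so a difference is not excluded.

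Cuticle collagens, which form the worm's exoskeleton and are made in waves at each molt, went in both directions. Of 128 tested (140 in the table), 8 (6.25%) were called lower and 24 (18.75%) higher, beside 0.966% and 7.61% of all genes tested. *col-101* (chromosome IV, 325435 to 327020) stood at 2269 and 1117 normalised read counts in N2 and at 171 and 188 in *smg-1*, an 8.81-fold lower level (log2 fold change -3.14, standard error 0.33, adjusted p = 0.00017). It overlaps another annotated gene, and no strand setting was stated for the counting. *col-135* stood at 58.2 and 35.1 in N2 and 7.45 and 4.28 in *smg-1* (-2.79), and *col-95* at 421 and 220 in N2 and 49.0 and 81.4 in *smg-1* (-2.25). *col-143* stood at 1759 and 799 in N2 and at 285 and 245 in *smg-1* (-2.16, standard error 0.37, adjusted p = 0.0031). For these 4 genes both *smg-1* libraries lay well below the lower of the N2 libraries, which was replicate 2 each time. Also called were *col-149* (-2.15), *col-8* (-1.83), *col-119* (-1.46) and *col-42* (-1.08). *col-119*, the most abundant of them, went from 28057 and 20519 to 7525 and 10130. The 8, picked by their calls, together summed to 45376 and 31815 in N2 and 10878 and 14034 in *smg-1*. They summed to 30797 and 34532 in *smg-2* and 43149 in N2 at 25°C. All 128 tested collagens summed to 446950 and 473197 in N2 and 409429 and 437769 in *smg-1*. Leaving out N2 replicate 1 kept 7 of the 8 calls, and leaving out replicate 2 kept all 8. The list as a whole then counted 18 and 10 lower genes, respectively.

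The 24 collagens called higher behaved differently against the N2 libraries. *col-130* stood at 291 and 893 normalised read counts in N2 and at 2695 and 2228 in *smg-1* (log2 fold change 2.26, standard error 0.39, adjusted p = 0.0033). *col-107* stood at 128 and 515 in N2 and at 1427 and 1259 in *smg-1* (2.38), and *col-58* at 28.8 and 95.3 in N2 and 274 and 261 in *smg-1* (2.33). Of the 24, 18 were already at least 2-fold higher in N2 replicate 2 than in replicate 1. Their median log2 difference was 2.43 from N2 replicate 1 and 1.02 from replicate 2. Only 12 of the 24 calls stood without replicate 1. Over all 128 collagens, 73 were called higher when replicate 2 was left out and 12 when replicate 1 was left out (8 and 13 without *smg-1* replicates 1 and 2), and the median log2 fold change of the list was 0.61 against both, 1.41 against replicate 1 and -0.11 against replicate 2. Among the called genes whose N2 libraries were close was *dpy-17*, a collagen that shapes the body. It stood at 20.3 and 17.2 in N2 and at 165 and 164 in *smg-1* (3.07, standard error 0.27, adjusted p = 5.79e-05), with 30.9 and 21.7 in *smg-2*. Of the 6 hypodermis markers, 4 were at least 2-fold higher in N2 replicate 2 than in replicate 1, and *rol-6*, a collagen, stood at 43.5 and 273 in N2 and at 279 and 231 in *smg-1*. How far such a difference among the N2 libraries accounts for the 24 calls was not tested.

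**Figure D2:**
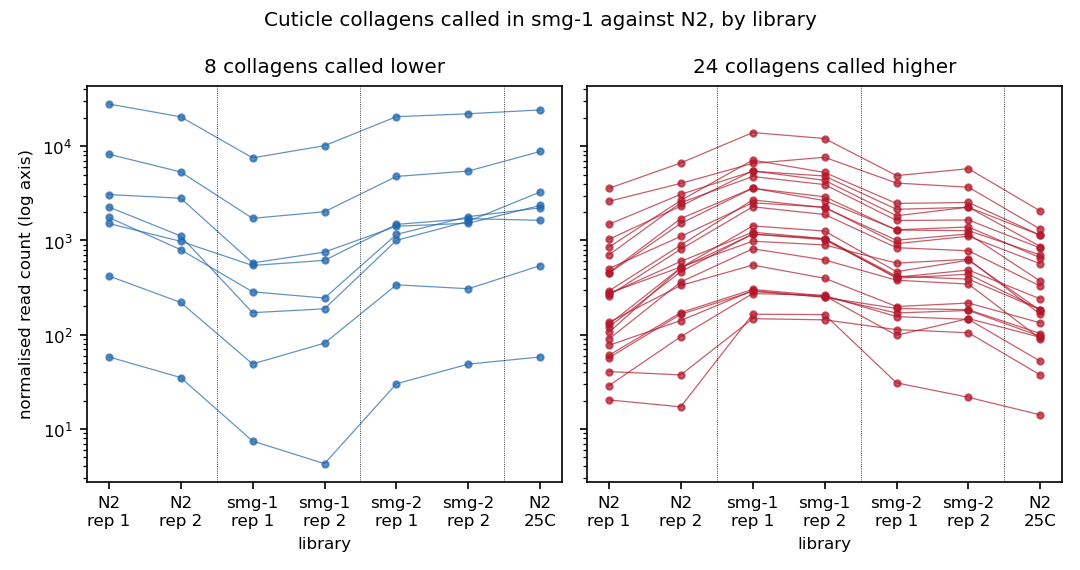
Normalised read counts (log axis) of the 8 cuticle collagens called lower and the 24 called higher in *smg-1*, in the 2 libraries each of N2, *smg-1* and *smg-2* at 20°C and the N2 library at 25°C; each line joins the values of 1 gene. Both groups were picked by their calls, so their place relative to N2 at 20°C follows from that choice. All 8 of the lower group are lowest in the *smg-1* libraries, and most of the higher group is lowest in N2 replicate 1 or at 25°C.

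In other gene families of the skin and cuticle the counts also depended on the N2 library. Of 18 cuticlins, proteins of the cuticle's inner ridges and linings, 5 (27.8%) were called higher, among them *cutl-10* (log2 fold change 1.80), *cutl-22* (1.70), *cutl-21* (1.36) and *cutl-14* (1.30). None of the 5 calls stood without N2 replicate 1, and the list had 0 calls when either *smg-1* library was left out. Of 53 Hedgehog-related and Patched-related genes, secreted and membrane proteins active in the epidermis, 5 (9.43%) were called higher, near the 7.61% of all genes tested. *ptr-12* stood at 112 and 182 normalised read counts in N2 and at 488 and 395 in *smg-1* (1.61, standard error 0.21, adjusted p = 7.50e-04), whereas *wrt-8* stood at 4.91 and 35.1 in N2 and at 73.5 and 52.3 in *smg-1* (2.11, adjusted p = 0.046). *grl-27* (2.38) and *grd-14* (1.55) were also called. Without N2 replicate 2 the count of this list was 27, without replicate 1 it was 2, and without *smg-1* replicates 1 and 2 it was 1 and 2. The *abu* and *pqn* genes, which code for glutamine- and asparagine-rich proteins, had 5 of 56 called higher (8.93%, also near the share of all genes), with *abu-10* (1.28), *pqn-68* (1.2), *pqn-37* (1.10) and *pqn-36* (1.04) in the lead, and had 18 without N2 replicate 2, 3 without replicate 1, and 1 and 2 without *smg-1* replicates 1 and 2.

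Transcripts of the yolk proteins were lower in *smg-1*. The vitellogenins are made in the intestine and taken up by oocytes through the receptor RME-2. All 6 vitellogenin genes were lower at an adjusted p under 0.05, and 3 of them fell by more than 2-fold, beside 9.25% and 0.966% of all genes tested. *vit-4* stood at 3290 and 2649 normalised read counts in N2 and at 712 and 851 in *smg-1*, a 3.79-fold lower level (log2 fold change -1.92, standard error 0.30, adjusted p = 0.0018). *vit-1* went from 5439 and 3906 to 1309 and 1396 (-1.77), and *vit-3* from 6273 and 5252 to 1617 and 1875 (-1.72). The log2 fold changes of *vit-5*, *vit-6* and *vit-2* were -0.90, -0.62 and -0.58. Both *smg-1* libraries lay below both N2 libraries for all 6 genes, a position that 32.6% of all genes tested held. The list's median was -1.46 against N2 replicate 1 and -1.13 against replicate 2. In *smg-2* the libraries were unlike each other, with *vit-4* at 1162 and 2288, and no vitellogenin differed between *smg-1* and *smg-2* at an adjusted p under 0.05. Vitellogenin genes resemble one another closely, and only reads with a single match were counted.

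Transcripts of the oocyte, eggshell and germline list shifted less but together. All 42 genes of the oocyte, eggshell and germline list had a log2 fold change below 0, 28 of them at an adjusted p under 0.05 and 3 (7.14%) by more than 2-fold. Of all 13869 genes tested, 7218 were below 0, 9.25% were lower at an adjusted p under 0.05 and 0.966% were called lower. The called genes were *oma-2*, a zinc-finger protein of oocyte maturation (888 and 721 in N2, 385 and 344 in *smg-1*, log2 fold change -1.13), *perm-2*, a protein of the eggshell's permeability barrier (1338 and 1418 against 601 and 678, -1.11), and *cpg-2*, an eggshell proteoglycan (7955 and 6809 against 3482 and 3352, -1.11, adjusted p = 0.0060). Close below the limit were *puf-5*, an RNA-binding protein of oocytes (-0.97), and the yolk receptor *rme-2* (-0.82). The list summed to 104706 and 85339 normalised read counts in N2, 60520 and 57489 in *smg-1*, and 76382 and 80297 in *smg-2*, with none of its genes at 0 in any of them. Its median was -0.82 against N2 replicate 1 and -0.60 against replicate 2, and -0.43 against *smg-2*. The count of 2-fold calls ranged from 1 without N2 replicate 1 to 12 without replicate 2, with 6 and 2 without *smg-1* replicates 1 and 2. *cyb-3*, a B-type cyclin that is outside the list and was picked after its values were seen, went from 1453 and 1527 to 740 and 660. Fewer germ cells and less of these RNAs per germ cell cannot be told apart in whole animals.

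Major sperm protein genes were lower too. Of 30 major sperm protein genes, which code for the sperm's cytoskeletal protein and the signal that triggers oocyte maturation, 29 had a log2 fold change below 0, 19 at an adjusted p under 0.05, and 5 (16.7%) were called lower. Among all genes tested, 9.25% were lower at an adjusted p under 0.05 and 0.966% were called lower. *msp-55* stood at 884 and 1294 normalised read counts in N2 and at 396 and 363 in *smg-1* (-1.49, standard error 0.18, adjusted p = 3.65e-04). *msp-63* (-1.44), *msp-51* (-1.40), *msp-65* (-1.17) and *msp-64* were the others. The copies share long stretches of sequence and are measured on their unique parts. *msp-74* went the other way, from 3.51 and 7.81 to 39.4 and 23.1 (2.31). The list summed to 23258 and 29917 in N2, 15799 and 15528 in *smg-1* and 19013 and 16420 in *smg-2*. Its calls numbered 13 without N2 replicate 1 and 3 without replicate 2, and 2 without *smg-1* replicate 1. Among 59 other sperm genes tested, *msd-4* (2343 and 2602 against 974 and 1148, -1.22, adjusted p = 3.75e-04), *msd-1* (-1.47) and *ssp-19* (-1.04) were called lower. The genes called lower are 5.1% of the list. Of these 59 genes 34 were below 0, beside 7218 of all 13869 tested, and the list's median was -0.11. Its 3 lower calls became 1 without N2 replicate 1, 1 without *smg-1* replicate 1 and 2 without *smg-1* replicate 2. Of 43 histone genes, 3 (6.98%) were called lower, *his-40* (-1.36), *his-2* (-1.32) and *his-46* (-1.06), and 1 (2.33%) higher, beside 0.966% and 7.61% of all genes tested. The histones summed to 53004 in N2 replicate 1 but 100651 in replicate 2, with 47068 and 56275 in *smg-1*. The *smg-1* animals, unlike N2, carried the H2B sequence of the transgene, and its part in the histone counts was not tested. The 3 lower calls became 7 without N2 replicate 1, 1 without replicate 2 and 0 without either *smg-1* library.

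**Figure D3:**
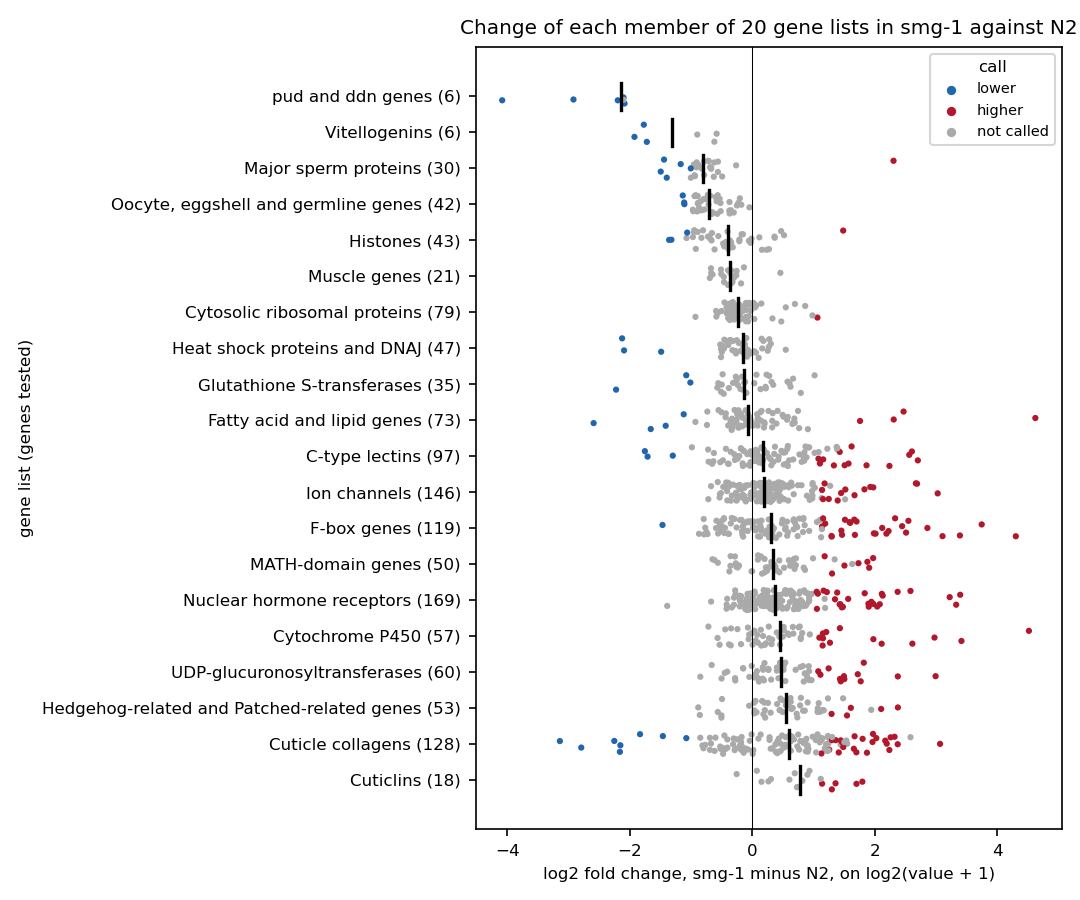
Log2 fold change of *smg-1* against N2 on log2(value + 1) for each tested member of 20 gene lists. Points are genes, coloured by call, and the black bar is the list's median. The medians of the *pud*, vitellogenin, major sperm protein and oocyte lists lie to the left of 0, and those of the cytochrome P450, UDP-glucuronosyltransferase, nuclear receptor and cuticle lists to the right.

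Several genes of lipid and energy metabolism fell. Of 73 fatty acid and lipid genes, 4 were called lower and 4 higher (5.48% each, beside 0.966% and 7.61% of all genes tested). The lower calls became 2 without N2 replicate 2 and 2 without *smg-1* replicate 2. *lipl-1*, a lipase of the lysosomal type, stood at 84.2 and 30.5 normalised read counts in N2 and at 9.58 and 6.0 in *smg-1* (log2 fold change -2.59, standard error 0.44, adjusted p = 0.0029), with both *smg-1* libraries below the lower N2 value. The stearoyl-CoA desaturases *fat-7* (239 and 380 against 136 and 66.0, -1.66) and *fat-6* (1576 and 2040 against 861 and 791, -1.12) fell, and *far-7*, a fatty acid and retinol binding protein, was at the edge of the threshold (-1.41, adjusted p = 0.0497). *far-7* lost its call under 13 of the alternatives. *hacd-1*, a hydroxyacyl-CoA dehydrogenase, stood at 175 and 266 in N2, 43.7 and 61.7 in *smg-1* and 305 and 446 in *smg-2*. It was 4.09-fold lower than in N2 (-2.03, standard error 0.27, adjusted p = 7.00e-04). Moving the other way, *acdh-2*, an acyl-CoA dehydrogenase, rose from 2581 and 2232 to 56693 and 61900, a 24.7-fold higher level (4.63, standard error 0.20, adjusted p = 8.54e-07). *far-3* (2.47), *lipl-4* (2.31), a lysosomal lipase, and *acdh-6* (1.76) rose as well.

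Chaperones and stress genes were among the low-level fallers. *hsp-16.2* (chromosome V, 1804334 to 1804957), a small heat shock protein, stood at 35.8 and 63.2 normalised read counts in N2 and at 7.45 and 13.7 in *smg-1* (log2 fold change -2.12, standard error 0.49, adjusted p = 0.014). *hsp-16.41* next to it (1805178 to 1805875) went from 30.2 and 40.6 to 5.32 and 10.3 (-2.09). After 3 hours at 25°C the N2 library held 831 and 736 normalised read counts of them. *hsp-12.6* was called as well (-1.49), and in all 3 of 47 heat shock protein and DNAJ genes were called lower and 0 higher (2 lower without N2 replicate 1, 0 without *smg-1* replicate 1 and 2 without *smg-1* replicate 2). At an adjusted p under 0.05 and any fold, 11 of the list were lower and 0 higher, beside 9.25% and 12.3% of all genes tested. The 3 heat shock calls are 6.38% of the list, beside 0.966% of all genes tested. Among 35 glutathione S-transferases, *gst-34* (21 and 18 against 2.13 and 5.14, -2.22), *gst-38* (-1.08) and *gst-28* (-1.01) were called lower, with 1 and 2 calls left without N2 replicates 1 and 2 and 0 and 1 without *smg-1* replicates 1 and 2. The transferases called lower are 8.57% of their list, beside 0.966% of all genes tested. The low genes of both lists are counted in few reads, 1 read being worth 0.702 and 0.781 normalised counts in N2 and 1.06 and 0.857 in *smg-1*.

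A pair of infection-response genes fell from higher levels. *irg-1*, a gene induced when bacteria block translation, stood at 1580 and 1420 normalised read counts in N2, 383 and 463 in *smg-1* and 1165 and 912 in *smg-2* (log2 fold change against N2 -1.83, adjusted p = 1.89e-04). *irg-2* went from 448 and 693 to 182 and 220 (-1.47). Both are of a list of 14 *irg* and *dod* genes, of which no other was called and 7 were below 0, with a median of -0.02. They are 14.3% of that list, beside 0.966% of all genes tested called lower. C06B3.7 (chromosome V, 13909686 to 13911585), for which no role is given here, showed a similar course, at 1504 and 1551 in N2, 215 and 272 in *smg-1* and 900 and 505 in *smg-2* (-2.65, standard error 0.24, adjusted p = 5.79e-05). The N2 library at 25°C was low for *irg-1* (446), *irg-2* (142) and C06B3.7 (227), and for *irg-2* it lay below both *smg-1* libraries. With it as an added N2 library the call of C06B3.7 was lost. The C-type lectins *clec-97* (-1.75), *clec-139* (-1.71) and *clec-146* (-1.30) were called lower. They are 3.09% of the 97 lectins tested, against 13 (13.4%) called higher, beside 0.966% and 7.61% of all genes tested. The most abundant of the lower genes besides collagens was *glp-4*, the valyl-tRNA synthetase, which was picked after its values were seen. It stood at 19404 and 18738 in N2, 7415 and 8381 in *smg-1* and 13901 and 11981 in *smg-2* (-1.27, adjusted p = 5.10e-05).

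Others among the 12 lowest called genes have only names. *drd-10* stood at 65.9 and 17.2 normalised read counts in N2 and 2.13 and 2.57 in *smg-1* (log2 fold change -3.38), so that its N2 libraries lay nearly 4-fold apart yet both stayed above *smg-1*. B0507.8 stood at 19.6 and 18.7 in N2 and at 0 and 7.71 in *smg-1* (-2.77, adjusted p = 0.038), and its call was lost without either N2 library. F55A12.6 went from 67.3 and 43.7 to 5.32 and 12 (-2.61), and *nspe-2* from 34.4 and 43.7 to 6.39 and 8.57 (-2.24). W10G11.3 (chromosome II, 3561749 to 3562519) went from 91.9 and 75.7 to 14.9 and 18.8 (-2.25, adjusted p = 2.19e-04). Its neighbour W10G11.2 (3560808 to 3561661) went from 46.3 and 30.5 to 8.52 and 11.1. Each of this pair overlaps another annotated gene, as did 28 of the 134 lower genes (20.9%) and 30.5% of all genes tested.

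**Figure D4:**
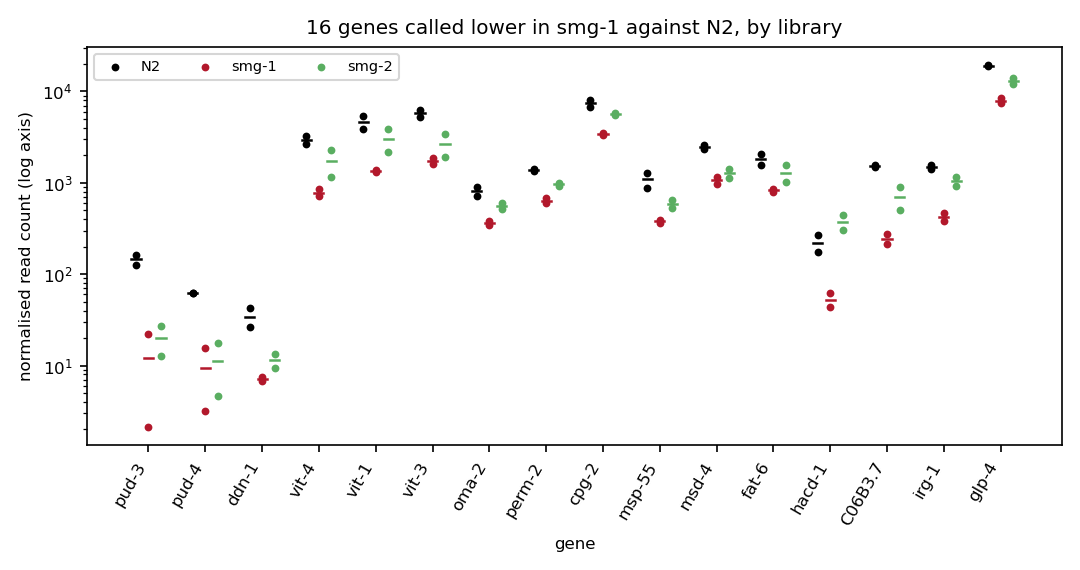
Normalised read counts (log axis) of 16 genes called lower in *smg-1*, in the 2 libraries each of N2 (black), *smg-1* (red) and *smg-2* (green); short bars are means. Both *smg-1* points lie below both N2 points for every gene, as they do for all 134 genes called lower. *smg-2* lies between N2 and *smg-1* for most, with *hacd-1* above N2.

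Cytochrome P450 and UDP-glucuronosyltransferase genes were called higher, unlike the glutathione S-transferases above. Of 57 cytochrome P450 genes tested, 13 (22.8%) were called higher and 0 lower. Of 60 UDP-glucuronosyltransferases, which attach sugars to foreign compounds, 12 (20.0%) were called higher and 0 lower. Among all genes tested 7.61% were called higher and 0.966% lower, and 0 lower calls are near the latter share. *cyp-13B1* (chromosome X, 13406674 to 13409643) stood at 93.3 and 50.8 normalised read counts in N2 and at 1418 and 1808 in *smg-1*, a 22.9-fold higher level (log2 fold change 4.52, standard error 0.38, adjusted p = 3.93e-05). *cyp-32B1* went from 32.3 and 19.5 to 268 and 289 (3.42). *cyp-33D1* (2.98) and *cyp-14A4* (2.62) were called from N2 levels of 1.40 to 3.12. *ugt-33* (3.00), *ugt-51* (2.38), *ugt-7* (1.82) and *ugt-53* (1.77) led the transferases, and *ugt-53* rose from 208 and 200 to 685 and 714. The lists counted 9 and 10 calls without N2 replicate 1, 8 and 9 without *smg-1* replicate 1, and 7 and 9 without *smg-1* replicate 2. Their medians were 0.45 and 0.46. Nuclear hormone receptors, ligand-gated transcription factors with a very large family in worms, had 26 of 169 (15.4%) called higher and 0 lower, with a median of 0.37. *nhr-101* stood at 293 and 283 in N2 and at 2397 and 3055 in *smg-1* (3.23, standard error 0.13, adjusted p = 5.51e-07). *nhr-195* rose from 18.9 and 27.3 to 220 and 258 (3.33), *nhr-110* from 74.4 and 89 to 472 and 517 (2.59), and *nhr-263* from 1.40 and 0.781 to 20.2 and 21.4 (3.40). The N2 libraries were close for this family, with 1 gene at least 2-fold higher in each.

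Genes for adaptors of ubiquitin ligases were often called higher, beside 7.61% of all genes tested called higher and 0.966% lower. Of the F-box genes tested, 27 (22.7%) were called higher and 1 lower, with *fbxa-209* (21 and 37.5 against 623 and 531, log2 fold change 4.31, adjusted p = 4.11e-06), *fbxa-140* (3.75), *fbxa-211* (3.39) and *fbxa-94* (3.11) in the lead. Of 50 MATH-domain genes, 7 were called higher, led by *math-3* (175 and 155 against 641 and 660, 1.98), *math-21* (1.91), *math-44* (1.88) and *bath-13* (1.74). Of 22 *pals* genes, a family tied to the response to intracellular pathogens, 6 (27.3%) were called higher and 1 (4.5%) lower. *pals-15* rose from 11.2 and 6.25 to 70.3 and 99.4 (3.17), and *pals-20* (2.29), *pals-18* (1.69) and *pals-19* (1.37) followed. Among secreted defence molecules, *cnc-4*, an antimicrobial peptide of the caenacin family, rose from 184 and 203 to 967 and 1219, a 5.60-fold higher level (2.48, standard error 0.20, adjusted p = 3.17e-05). *fipr-26* (2.56) and *fip-6* (1.42) were called as well, and *clec-165* (2.61), *clec-55* (2.71), *clec-25* (2.57) and *clec-225* (2.24) led the 13 lectins called higher. The lectins called higher numbered 18 without N2 replicate 2 and 5 without *smg-1* replicate 2, and the 3 called lower became 2 without N2 replicate 1, 2 without *smg-1* replicate 1 and 1 without *smg-1* replicate 2. The antimicrobial peptide and saposin-like list had 3 of 47 genes called higher (6.38%), which is near the 7.61% of all genes tested. It had 5 without N2 replicate 2, 1 without *smg-1* replicate 1 and 2 without *smg-1* replicate 2. Without N2 replicate 1, 23 F-box, 5 MATH and 5 *pals* genes were called higher, with 21, 3 and 4 left without *smg-1* replicate 1 and 15, 5 and 3 without *smg-1* replicate 2.

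Some proteases and membrane channels had large rises. Of 79 proteases, 11 (13.9%) were called higher and 1 (1.27%) lower, beside 7.61% and 0.966% of all genes tested. *nep-15*, a neprilysin-type metalloprotease (chromosome X, 8372206 to 8374529), had the largest change of any gene called, from 3.51 and 18.7 normalised read counts in N2 to 1753 and 1659 in *smg-1* (log2 fold change 7.50, standard error 0.51, adjusted p = 1.02e-05). *nep-24* (3.42), *nas-21* (3.24) and *nep-4* (2.93) followed, and the list counted 25 higher without N2 replicate 2 and 8 without N2 replicate 1. Of 146 ion channel genes, 14 were called higher and 0 lower, a share of 9.59% that is near the 7.61% of all genes tested. *glr-6*, a glutamate receptor subunit, rose from 105 and 122 to 894 and 964 (3.03, adjusted p = 3.56e-06), and *egas-3* (2.69), *lgc-54* (2.67) and *nmr-1* (1.98) followed, with 8 calls left without *smg-1* replicate 2. Among smaller groups, 4 of 52 transthyretin-related genes, or 7.69%, were called higher (*ttr-38* 2.77, *ttr-55* 2.14, *ttr-49* 1.71, *ttr-7* 1.24), as were 4 of 32 chemoreceptors, or 12.5% (*srx-58* 3.34, *srh-48* 2.83, *srj-14* 2.37, *srh-237* 1.2) and 3 of 89 neuropeptides, or 3.37% (*nlp-25* 2.01, *nlp-79* 1.38, *nlp-30* 1.19). The transthyretin-related share is that of all genes tested and the neuropeptide share is below it. The chemoreceptor *sri-40* (-2.16) and the neuropeptide gene *nlp-26* (-1.11) were called lower. The higher calls of the chemoreceptors fell to 2 without *smg-1* replicate 1, and those of the neuropeptides to 1 without either *smg-1* library. Outside any list, *odc-1*, ornithine decarboxylase of polyamine synthesis, rose from 199 and 284 to 12184 and 12938, a 52.6-fold higher level (5.72, standard error 0.20, adjusted p = 3.26e-07). C45B2.8 (6.69) and *vmo-1* (6.06) rose from levels of at most 25. Of the 10 largest changes, 6 belonged to genes without a symbol, such as WBGene00000755 (6.42) and WBGene00015763 (6.42), both annotated as pseudogenes. Of the 191 tested genes that the Ensembl annotation used here classes as pseudogenes, 131 (68.6%) were called higher and 0 lower. The 0 is near the 0.966% of all genes tested. The study limited its counting to genes it took as protein-coding, so these 191 do not stand for pseudogenes as a class.

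**Figure D5:**
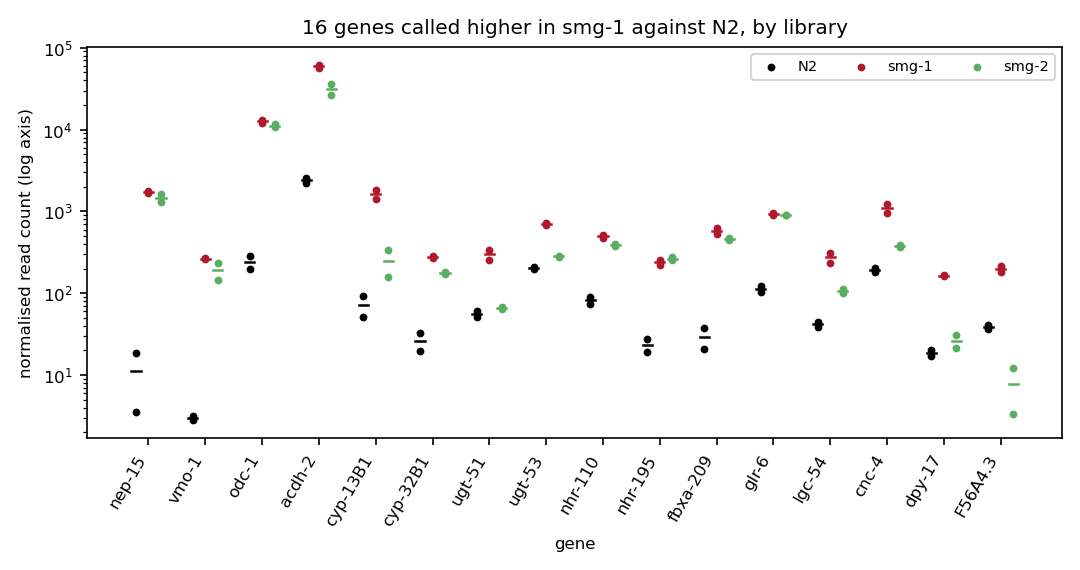
Normalised read counts (log axis) of 16 genes called higher in *smg-1*, in the 2 libraries each of N2 (black), *smg-1* (red) and *smg-2* (green); short bars are means. For *cyp-13B1*, *ugt-51*, *ugt-53*, *cnc-4* and *dpy-17* the *smg-2* libraries lie nearer to N2 than to *smg-1*, and for F56A4.3 they lie below N2.

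The ribosomal protein, muscle and splicing factor lists had few or no calls. Of 79 cytosolic ribosomal protein genes, 67 had a log2 fold change below 0, beside 7218 of all 13869 tested, with a median of -0.23. At an adjusted p under 0.05 and any fold, 10 of them were lower and 7 higher. *rpl-30* was the one called, from 5532 and 5064 to 11708 and 10497 (1.07). Of 21 muscle genes, 20 were below 0 with a median of -0.36, 9 of them at an adjusted p under 0.05, beside 9.25% of all genes tested, and none passed 2-fold. Of 8 SR splicing factor genes, 5 were higher at an adjusted p under 0.05, beside 12.3% of all genes tested, and 1 was lower. None was called, though the list median of 0.46 was close to that of the UDP-glucuronosyltransferases.

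The *smg-1* and *smg-2* mutants come from the same reporter strain, and their direct comparison sets the mutants' levels against each other. It shares the *smg-1* libraries with the comparison above, and the N2 libraries enter its p-values through the shared estimate of the spread. In it, 62 genes (0.447%) were higher and 69 (0.498%) lower in *smg-1* at an adjusted p under 0.05, and 31 and 44 were also past 2-fold. In *smg-2* against N2, 796 genes (5.74%) were called higher and 18 (0.130%) lower. Of the 128 cuticle collagens, 13 were lower and 4 higher in *smg-1* than in *smg-2* at an adjusted p under 0.05. *col-101* stood at 1003 and 1601 normalised read counts in *smg-2* (log2 difference -2.81, adjusted p = 0.0097), *col-135* at 30.2 and 48.8 (-2.56), *col-95* at 339 and 308 (-2.34) and *col-143* at 1160 and 1790 (-2.44). *hacd-1* was also among the 5 lowest (-2.81, adjusted p = 0.0046). Highest in *smg-1* was F56A4.3, at 217 and 182 in *smg-1*, 40.7 and 36.7 in N2 and 3.35 and 12.2 in *smg-2* (4.72, adjusted p = 0.0043). *cyp-13B1* (2.80, adjusted p = 0.013), *dpy-17* (2.62, adjusted p = 0.0082), *ugt-51* (2.15, adjusted p = 0.0097) and *cyp-34A9* (1.99, adjusted p = 0.0097) followed. *cyp-34A9* stood at 57.5 and 62.5 in N2, 114 and 159 in *smg-1* and 34.2 and 31.8 in *smg-2*. Of the cytochrome P450 genes 4, and of the UDP-glucuronosyltransferases 6, were higher in *smg-1* and 0 lower. Without *smg-1* replicate 1, or without replicate 2, 0 genes passed both limits in either direction.

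The lower genes differed in structure from those called higher. Among the 134, 133 were protein-coding, 1 was not in the annotation and 0 were annotated pseudogenes. Of the 1056 higher genes, 901 were protein-coding and 131 (12.4%) annotated pseudogenes. Genes annotated as pseudogenes were 1.38% of all genes tested, and the 0 among the lower genes is near that share. They are only those that the study had counted as protein-coding. None of the 106 lower coding genes with an annotated 3'UTR had that region split by an intron, a feature known to trigger NMD, against 11.1% of the higher ones and 4.93% of all. Their longest annotated 3'UTR had a median of 91.5 nucleotides, against 110 in the higher genes and 147 in all genes tested. The lower genes had a median of 3 exons and a coding length of 627 nucleotides, against 6 and 1026 in the higher genes and 6 and 1122 in all. Their median level in N2 was 91.8 normalised read counts, beside 33.9 for the higher genes and 175 for all. Chromosome V held 48 of the lower genes, or 1.80% of its tested genes, and 308 of the higher ones, or 11.5%. Chromosome III held 10 lower genes (0.457%). Within 1 Mb of *smg-1*, 20 of 409 tested genes were called higher (4.89%) and 1 lower (0.244%). These shares are descriptions, since genes of a family lie side by side.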

How the data were processed

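Whole young adults were sequenced as total RNA. The authors depleted rRNA, mapped reads to WBcel235 with STAR (2.5.4a per the submitters' processing notes, which also name DESeq2), kept reads with a single match and counted those on exons of protein-coding genes. The signal they deposited, per the file headers normalised reads, is for each gene a read count over the library's size factor. Whole reads, to within 0.01 of a read, were recovered for 100% of values, and 14967 of 15106 gene IDs were in the Ensembl annotation.

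With genes averaging 10 or more kept (13869), log2(value + 1) of the 8 libraries at 20°C was fitted in limma 3.58.1 (R 4.3.3, trend) without a replicate block; a gene was called at a Benjamini-Hochberg adjusted p under 0.05 and a log2 fold change beyond 1 or -1. The study's limits were a 2-fold change and a p-value under 0.05, without saying whether it was adjusted; they are an alternative here on the unadjusted p. The *clk-2* columns carry no strain name of the labels: their name mixes those of the *clk-2* alleles qm37 and mn125, and they were assigned to *clk-2* because no other strain was left. Here they enter only the mean filter and the shared estimate of the spread, and a fit of N2 and *smg-1* alone, over the same genes, called 964 genes higher and 120 lower against 1056 and 134. As alternatives, edgeR 4.0.16 (quasi-likelihood) and DESeq2 1.42.0 took the whole reads. On simulated reads for *smg-1* against N2 over 13869 genes, limma recovered 94.9% of 98 genes changed by a log2 of 2 and 98.0% of 102 changed by 3, with 15 false calls. Smaller changes were not simulated, while the lower genes had a median log2 fold change of -1.39, so their recovery is not known. Each library was drawn independently, so the simulation held no shared difference between the N2 libraries such as the one seen.

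The comparison and the 42 lists were chosen with earlier results of these data known. Named genes were the *smg* genes, the reporter construct's genes, the 12 lowest and 10 highest called genes with both *smg-1* libraries beyond both N2 libraries, up to 4 leading members of each list with at least 3 calls in a direction, and the 5 lowest and 5 highest against *smg-2* called in the same direction against N2. Others are said to be picked after their values were seen or are given as values beside their list. No sequences are shown, since no genome was used here.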

Additional observations from a re-analysis of the deposited data

How the results depend on the processing

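Counts of genes called against N2 (1056 higher, 134 lower) stayed within 1.5 times under the unadjusted p with 2-fold, other pseudocounts, no filter, N2 and *smg-1* alone, TMM scaling, edgeR, DESeq2 and N2 at 25°C as an added N2 library. They moved to 1702 and 1283 at an adjusted p with any fold, to 478 and 59 at a mean of at least 100 (fewer genes tested), and to 270 lower under quantile normalization. Leaving out 1 library gave 722 to 1468 higher and 83 to 190 lower, with 83 without *smg-1* replicate 1. Against *smg-2* (31 higher, 44 lower) there were 251 and 122 by the unadjusted p, 51 higher by edgeR and 62 by DESeq2, and leaving out 1 library gave 0 to 1 higher and 0 to 2 lower. The replicate block gave 995 and 125 against N2 and 17 and 28 against *smg-2*; the numbers share only a label, since deviations of equal numbers correlated at -0.104 for N2 and *smg-1* and 0.035 for *smg-1* and *smg-2*. Crossing the *smg-1* numbers in the block, chosen after seeing the data, gave 1034 and 128 against N2 and 26 and 37 against *smg-2*. The 137 named genes were followed under each alternative that tested them, and each pair of gene and alternative was counted. In 177 such pairs the gene lost its adjusted p, in 1812 it kept its side of the threshold and in 0 it reversed. These are pairs and not numbers of genes. Leaving out a *smg-1* library accounted for the most losses of any alternative. The adjusted p of *gst-34*, *srh-237*, *gst-28*, *ssp-19*, *hsp-12.6*, *clec-146*, *acdh-6*, *abu-10*, *pqn-36*, *pals-19*, *wrt-8* and the 4 named cuticlins was lost without N2 replicate 1, that of *gst-38*, *his-2*, *his-46*, *nlp-79*, *pud-1.1* and *smg-3* without N2 replicate 2, and that of *far-7*, *msd-1* and B0507.8 without either. All of these were also lost without *smg-1* replicate 1, as were *pud-4*, *pud-2.2*, *drd-10*, *hsp-16.2*, *hsp-16.41*, *msp-51*, *msp-63*, *clec-139*, *his-40*, *col-107*, *unc-119* and F56A4.3 among others, and *cpg-2*, *fat-7*, *clec-97* and *cyp-34A9* were lost without *smg-1* replicate 2. The causes of these changes were not tested. With 2 libraries per strain and 1 read worth up to 1.06 normalised counts in *smg-1*, differences of genes at a few counts are the least certain.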

Other observations

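In the propionate breakdown pathway that worms use when vitamin B12 is scarce, picked after its values were seen, *acdh-1*, the acyl-CoA dehydrogenase at its start, stood at 15806 and 19308 normalised read counts in N2 and at 28554 and 27997 in *smg-1* (log2 fold change 0.69, adjusted p = 0.011 from limma). *hphd-1*, a dehydrogenase of the same pathway, rose from 3485 and 3201 to 7964 and 7576 (1.22, adjusted p = 2.13e-04 from limma), with 6215 and 4703 in *smg-2*. Outside that pathway, and also picked after its values were seen, was *sams-1*, the S-adenosylmethionine synthetase. It stood at 3468 and 3953 in N2 and 1930 and 2115 in *smg-1* (-0.87, adjusted p = 0.0011 from limma). For all 3 genes the *smg-1* libraries lay beyond both N2 libraries. Of all 13869 genes tested, 4156 lay above both N2 libraries in this way and 4520 lay below both.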
